A study of Mus musculus with 87 samples.

Results

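The COUP-TF nuclear receptors are 3 genes in the mouse: Nr2f1 (COUP-TFI), Nr2f2 (COUP-TFII) and Nr2f6 (EAR2). They were followed here across 13 RNA-seq comparisons of 26171 gene symbols each, and across 2 lists of ChIP-seq regions. The family was selected on a measured value: in the list of 6882 regions with changed trimethylation of histone H3 lysine 27 (H3K27me3), the region with the smallest deposited value lies at Nr2f2. That value is therefore given as a description only and supports nothing below. All 3 genes were present in every comparison table.

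COUP-TFs are orphan nuclear receptors that bind repeats of the half-site AGGTCA as dimers and mostly act as repressors, with corepressors such as NCoR and the zinc finger protein BCL11A. Nr2f1 and Nr2f2 are known as retinoic acid-inducible genes; Nr2f1 patterns the developing cortex and hindbrain, and Nr2f2 is known for roles in venous endothelium, atria and mesenchyme. Nr2f6 is a more widely expressed relative that is studied mainly in T cells. Nr2f1 and Nr2f2 are textbook targets of Polycomb repression in embryonic stem cells, in which Polycomb repressive complex 2 (PRC2), with SUZ12 as a core subunit, methylates H3K27.

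The series holds 87 samples of the mouse embryonic stem cell (ESC) line 129-B13 and its neuronal precursors (NP), of which 32 are RNA-seq and 55 are ChIP-seq samples. ESC were grown in 20% serum with LIF, and NP received retinoic acid on day 4 and were harvested on day 8. The ESC groups were wild type (WT, n = 3), cells that always include exon 4 of Suz12 (CSex4, n = 2), cells with that exon deleted (Deltaex4, n = 2), the full Suz12 knock-out (KO, n = 3), and the KO rescued with the long (KO-L, n = 2) or the short Suz12 isoform (KO-S, n = 2). KO-L3D and KO-S3D (n = 2 each) are KO cells with such a rescue in the Rosa26 locus that carries the labelled 3D mutation at position 196. The NP groups were WT (n = 4) and, with n = 2 each, Deltaex4, CSex4, the KO and both rescues without the mutation. The labels do not say whether the samples of a group are separate cultures or clones, so a p-value measures only the spread between these samples, which may be technical.

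Mean depth, as the sum of the scaled mean reads over genes, was 28297542 to 29570422 reads per library in the ESC tables and 26085140 to 31499803 in the NP tables. For the targeted gene Suz12, KO against WT gave -1.82 in the authors' deposited ESC table (adjusted p = 8.21e-15, DESeq2), on the log2 scale. The authors' deposited NP table gave -2.14 for it (adjusted p = 5.63e-09, DESeq2). In ESC its log2 fold change against WT in the authors' deposited tables was -1.05 in KO-L, -0.83 in KO-S, -1.85 in KO-L3D and -0.06 in KO-S3D. The summed mean level of 5 ESC markers (Pou5f1, Nanog, Sox2, Zfp42 and Esrrb) was 65542 to 93847 scaled reads in the ESC tables and 5010 to 22982 in the NP tables. That of 7 neural precursor markers (Sox1, Pax6, Nes, Hes5, Fabp7, Dcx and Tubb3) was 2791 to 6217 in ESC and 6827 to 32015 in NP, and no marker was at 0 in any table. In these bulk samples, fewer cells of a type and less RNA per cell cannot be told apart.

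The promoters of the 3 genes are shown because the regions described next cover those of Nr2f1 and Nr2f2 and leave that of Nr2f6 uncovered. Each is the reverse strand from 250 bases before to 50 bases after the annotated start, 5′ to 3′, from RefSeq (GRCm38.p6), with every CpG in capitals. The positions are chr13:78198824-78199123 for Nr2f1, chr7:70366697-70366996 for Nr2f2 and chr8:71381903-71382202 for Nr2f6.
Nr2f1: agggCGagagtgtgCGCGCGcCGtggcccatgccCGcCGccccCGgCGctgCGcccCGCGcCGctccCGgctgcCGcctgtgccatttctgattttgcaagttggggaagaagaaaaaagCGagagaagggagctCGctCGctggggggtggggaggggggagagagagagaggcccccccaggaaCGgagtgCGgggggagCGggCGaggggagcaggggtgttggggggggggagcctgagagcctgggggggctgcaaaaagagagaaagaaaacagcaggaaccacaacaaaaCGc
Nr2f2: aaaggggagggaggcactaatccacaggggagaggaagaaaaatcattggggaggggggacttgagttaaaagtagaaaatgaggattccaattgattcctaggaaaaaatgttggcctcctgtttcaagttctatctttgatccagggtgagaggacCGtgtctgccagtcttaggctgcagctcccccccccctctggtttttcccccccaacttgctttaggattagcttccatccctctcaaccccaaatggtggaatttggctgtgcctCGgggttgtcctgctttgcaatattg
Nr2f6: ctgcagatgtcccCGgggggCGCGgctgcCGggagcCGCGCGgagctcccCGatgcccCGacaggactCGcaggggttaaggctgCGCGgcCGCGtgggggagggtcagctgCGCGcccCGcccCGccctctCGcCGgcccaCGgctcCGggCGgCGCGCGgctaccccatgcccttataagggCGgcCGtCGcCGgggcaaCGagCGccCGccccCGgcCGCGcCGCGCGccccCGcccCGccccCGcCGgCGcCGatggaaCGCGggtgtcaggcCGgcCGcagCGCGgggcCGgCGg
The Nr2f1 promoter held 23 CpG dinucleotides at 68.0% G+C, more than 78.5% of the 32851 promoter entries of the same length in the table. That of Nr2f6 held 53 at 82.7% G+C, more than 99.5% of entries. The Nr2f2 window held 2 CpG at 49.7% G+C, and 14.1% of entries held fewer. That window is the only Nr2f2 entry and lies at the outer end of the gene, so any start inside the gene was not examined. A second annotated Nr2f1 start, at chr13:78196400-78196699, held 4. The half-site AGGTCA, searched on both strands (reverse complement TGACCT), occurred in none of these windows and in 16.3% of all promoter entries.

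Regions of the deposited H3K27me3 list lay at all 3 genes, and regions of the Suz12 list at 2 of them, within 2500 bp of the gene. A region of the first list lay within that distance of 4823 of the 20988 protein-coding genes in the tables (23%), and one of the second list at 2558 (12.2%). The value of each region is the authors'; whether it stands for a raw or a corrected p, the direction of the change and the groups compared are not given in the sources used here. The build mm10 is taken from the submitters' processing notes, and the gene positions come from RefSeq on GRCm38.p6.

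At Nr2f2 (chr7:70351946-70366746, reverse strand) the H3K27me3 region spanned chr7:70320669-70374586. It is 53.9 kb wide and covered the whole gene, from 7.8 kb before the start to 46.1 kb past it. Its deposited value of 9.27e-229 ranked 1 of 6882 and its width ranked 5. The next region of the list, at chr15:102932383-102966596, had 1.16e-209. The median width of the list was 3144.5 bp. Regions of the Suz12 list covered 88.2% of the Nr2f2 region, as 4 regions of 1.9 to 17.9 kb. The 1 over the gene start spanned chr7:70354064-70371941 with a value of 4.27e-57 (rank 98 of 2865). A second H3K27me3 region of 15.5 kb (1.17e-133, rank 87) lay 59.1 kb beyond the gene, and a Suz12 region of 10.1 kb lay inside it.

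Nr2f1 (chr13:78188971-78198873, reverse strand) was also covered whole, by an H3K27me3 region at chr13:78171746-78201536. That region is 29.8 kb wide, with a value of 1.06e-124 that ranked 110 and a width that ranked 21. A further region of 12.8 kb (3.27e-111) began 2.8 kb before the start, just outside the distance used, so the 4 regions around Nr2f1 ran from 15.6 kb before to 35.6 kb after the start with narrow gaps. The Suz12 region over the Nr2f1 start, chr13:78193185-78205324, is 12.1 kb wide, had a value of 1.08e-54 (rank 122) and covered 57.4% of the gene.

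Nr2f6 (chr8:71374118-71381967, reverse strand) differed in these measures. Its 2 H3K27me3 regions lay inside the gene body and were 2.3 and 2.7 kb wide, with values of 5.28e-11 (rank 3934) and 6.88e-07 (rank 5409). The nearer of them began 0.3 kb after the start, so the start itself was in no region. The nearest Suz12 region to its promoter lay 175757 bp away.

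**Figure D1:**
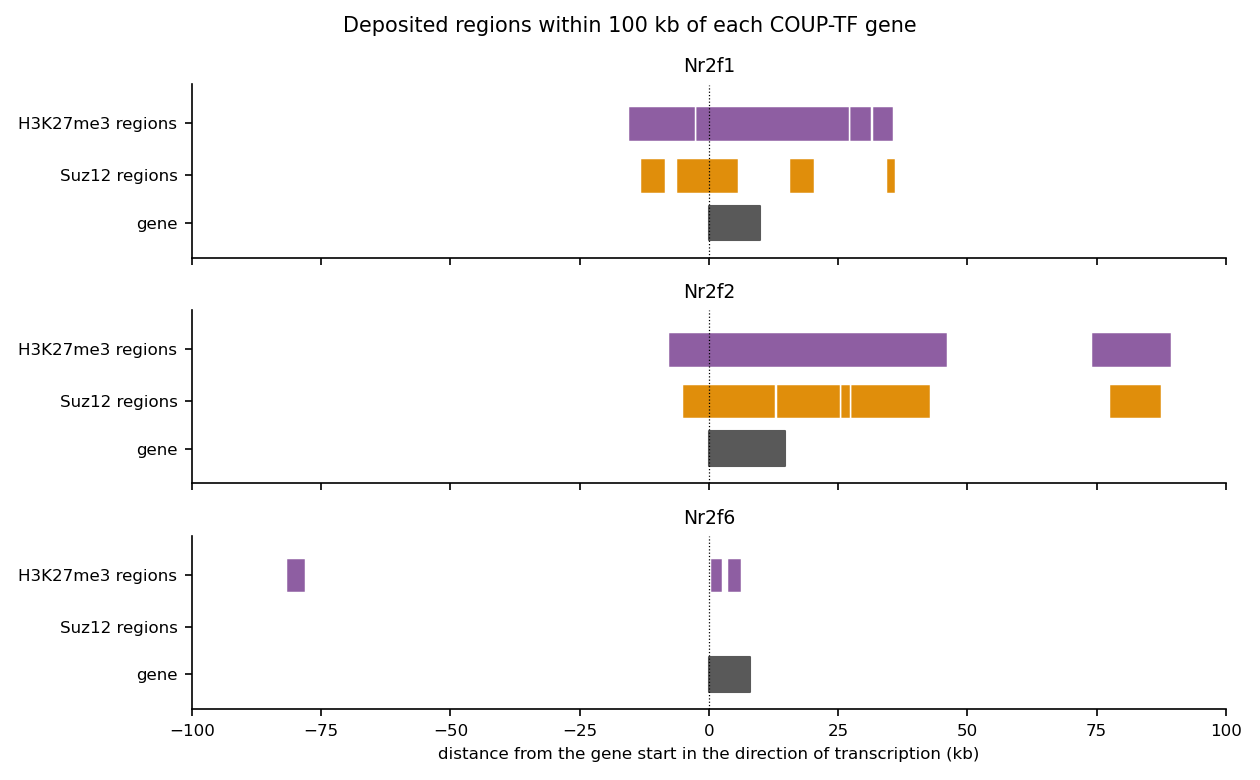
Deposited H3K27me3 regions (purple) and Suz12 regions (orange) around each gene (grey), with distance from the gene start in kb on the horizontal axis and transcription running to the right; white edges separate regions. Broad regions of both kinds cover the starts of Nr2f1 and Nr2f2, while Nr2f6 has 2 H3K27me3 regions of 2.3 and 2.7 kb in its body, another 78.2 kb before its start, and no Suz12 region within 100 kb.

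Whole reads per library were recovered from the deposited mean reads, as described for the processing, and scaled to 1 depth per cell type through the libraries that tables share. The tables were normalized separately, so levels set across them are a description without a test. Libraries of a group are called a, b and c in order of falling size factor, because their replicate numbers are not known.

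In ESC, Nr2f1 was close to silent in WT, with 3, 1 and 2 reads, and had 26, 24 and 36 reads in KO. All 3 KO libraries lay above all WT libraries. CSex4 had 3 and 0 reads, Deltaex4 2 and 2, and KO-S 0 and 0, each within the range of WT or below it; 0 reads allow up to 3. KO-L had 11 and 1 reads, KO-S3D 15 and 2, and KO-L3D 17 and 15. Of these groups, only KO-L3D lay above WT in both libraries, and its scaled level of 14.3 ± 0.9 (SD, n = 2) was below the 28.2 ± 8.0 (SD, n = 3) of KO without overlap. From lowest to highest mean, the order was KO-S, CSex4, WT, Deltaex4, KO-L, KO-S3D, KO-L3D and KO, and every pair of neighbours up to KO-L3D overlapped.

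Nr2f2 showed the same order of magnitude in ESC. WT had 2, 2 and 3 reads and KO had 46, 33 and 40, again without overlap. Deltaex4 had 1 and 1, KO-S 5 and 3, CSex4 16 and 2, KO-L 26 and 8, KO-S3D 35 and 3, and KO-L3D 60 and 12. In CSex4, KO-L, KO-L3D and KO-S3D the Nr2f2 reads of a pair differed widely, and library a had more reads than library b of both Nr2f1 and Nr2f2 in each of the 4 groups. Part of this is depth. On the scaled level library a was still the higher for both genes in CSex4, KO-L and KO-S3D. In KO-L3D this held for Nr2f2 only, and Nr2f1 was slightly lower in library a than in library b. Library a is the one with the larger size factor in each pair, so the same letter in different groups marks no common replicate. The scaled level of Nr2f2 was 38.5 ± 4.8 (SD, n = 3) in KO, 30.2 ± 25.7 (SD, n = 2) in KO-L3D and 2.4 ± 0.8 (SD, n = 3) in WT. Among neighbours in the order Deltaex4, WT, KO-S, CSex4, KO-L, KO-S3D, KO-L3D and KO, only Deltaex4 and WT did not overlap, at 1 read against 2 to 3.

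Nr2f6 had far more reads than the other members in every ESC library. WT had 578, 611 and 334 reads and KO had 446, 379 and 398. The other 6 groups lay between 394 and 675 reads, and all neighbouring groups overlapped in scaled level. The lowest mean was that of KO, 396 ± 17 (SD, n = 3), against 512 ± 123 (SD, n = 3) in WT and 643 ± 22 (SD, n = 2) in KO-S.

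**Figure D2:**
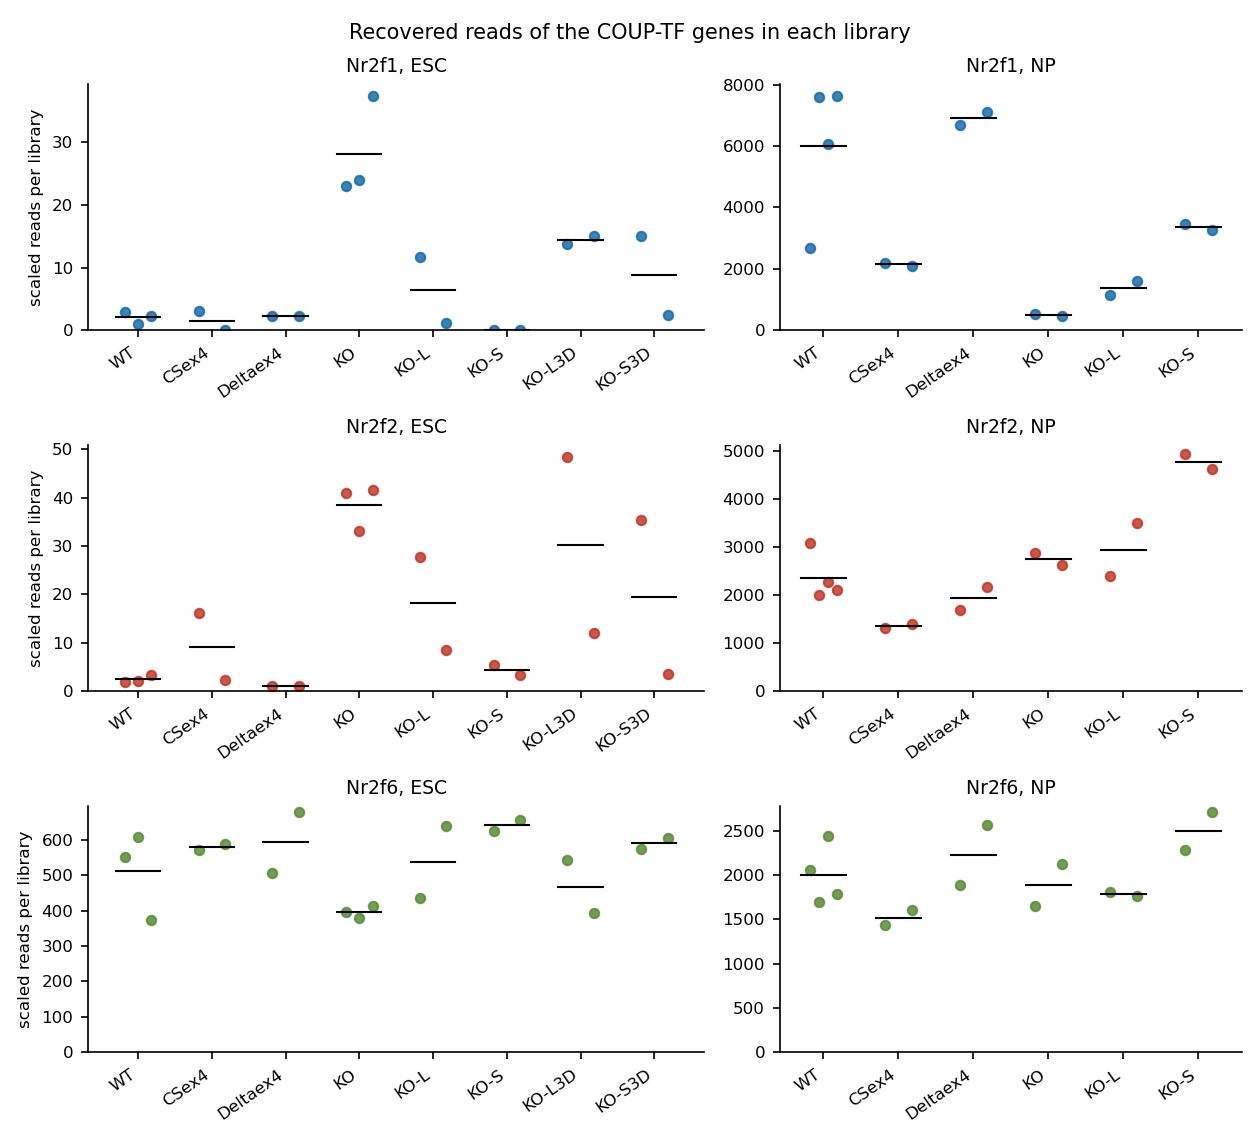
Recovered reads of each gene per library, scaled to 1 depth within ESC (left) and within NP (right); points are libraries, black lines are group means and each panel has its own vertical axis from 0. In ESC, KO libraries lie above all WT libraries for Nr2f1 and Nr2f2; in NP, KO libraries lie below all others for Nr2f1 and within the range of WT for Nr2f2 and within or just below it for Nr2f6.

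In ESC without Suz12, Nr2f1 and Nr2f2 rose and Nr2f6 did not pass the test. The authors' deposited table of KO against WT gave Nr2f1 a log2 fold change of 3.78 ± 0.99 (SE, adjusted p = 0.00180, DESeq2), higher in 3 of 3 KO libraries. For Nr2f2 the authors' deposited table gave 4.01 ± 0.87 (SE, adjusted p = 8.67e-05, DESeq2), also higher in 3 of 3. For Nr2f6 it was -0.34 ± 0.24 (SE, adjusted p = 0.355, DESeq2) in the authors' deposited table. The family count of 2 of 3 called higher stands beside 11.0% of all tested genes called higher and 18.3% called in either direction. Because WT held 6 and 7 reads in all, the size of these changes is loosely known. The ratio of summed scaled reads was 13.7 for Nr2f1, with an exact binomial 95% interval of 6.03 to 38.3, and 16.2 for Nr2f2, with 7.63 to 41.2; the intervals cover counting error only. Of 5 mesoderm and mesenchyme markers (T, Hand1, Col1a1, Col1a2 and Twist1) 3 were called higher in the same table, and of 3 endoderm markers (Gata6, Sox17 and Foxa2) none was by DESeq2, with 1 at an unadjusted p under 0.05 (Gata6, 2.69 ± 1.37, SE) in the authors' deposited table; their part in the result was not tested.

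In the rescued KO cells none of the 3 genes was called against WT by DESeq2 in the authors' deposited tables of KO-L, KO-S, KO-L3D and KO-S3D. At an unadjusted p under 0.05 there was 1, Nr2f2 in KO-L3D. The percentages of all tested genes called in those tables were 2.23, 7.91, 18.3 and 3.23. The authors' deposited table gave Nr2f2 3.21 ± 1.60 (SE, unadjusted p = 0.0447, adjusted p = 0.154, DESeq2) in KO-L3D, 2.58 ± 1.88 (SE) in KO-L, 2.20 ± 2.05 (SE) in KO-S3D and 0.69 ± 2.63 (SE) in KO-S. For Nr2f1 the authors' deposited tables gave 3.24 ± 2.09 in KO-L3D, 2.06 ± 2.71 in KO-S3D, 1.31 ± 2.74 in KO-L and -2.94 ± 4.84 in KO-S (SE). The adjusted p is NA for Nr2f1 in these 4 tables and for Nr2f2 in 3 of them, all but KO-L3D, so these values had no adjusted test. The labels call the authors' fits paired, and in these tables and those of CSex4 and Deltaex4 WT library a has no partner and bears little on the fold change.

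Ratios of summed reads against WT show how far the rescues lay from WT by counting error alone. For Nr2f2 the ratio was 13.5 in KO-L3D (95% interval 6.23 to 34.8), 8.74 in KO-S3D (3.86 to 23.2), 7.66 in KO-L (3.34 to 20.5) and 1.81 in KO-S (0.574 to 5.87). For Nr2f1 it was 7 in KO-L3D (2.89 to 20.5), 4.56 in KO-S3D (1.72 to 14.1) and 3.15 in KO-L (1.1 to 10.2). These intervals leave out the spread between libraries. Of the 5 mesoderm and mesenchyme markers, 4 were called higher in KO-L and 1 in KO-S, 1 higher and 1 lower in KO-L3D and 2 lower in KO-S3D by DESeq2; their part in these values was not tested.

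Differences between rescues were tested as the difference of 2 deposited log2 fold changes, with p-values adjusted over all genes; tables that share WT libraries make this test approximate. None of the 3 genes passed in any of the 6 ESC differences among KO and rescues. The shares of all genes that passed were 0.336% for KO-L minus KO, 2.44% for KO-S minus KO, 2.36% for KO-S minus KO-L, 2.84% for KO-L3D minus KO-L, 0.440% for KO-S3D minus KO-S and 0.0395% for KO-S3D minus KO-L3D. The 95% intervals were wide: KO-S minus KO was -3.32 for Nr2f2 (-8.76 to 2.12) and -6.72 for Nr2f1 (-16.40 to 2.95). KO-S minus KO-L was -1.88 for Nr2f2 (-8.23 to 4.46). For Nr2f6, whose reads are many, KO-S minus KO was 0.77 (-0.05 to 1.59, unadjusted p = 0.0656, Wald test on the deposited DESeq2 values).

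In ESC with forced inclusion or deletion of exon 4, no family member was called by DESeq2 in the authors' deposited tables, and none had an unadjusted p under 0.05; in CSex4 the adjusted p is NA for Nr2f1 and Nr2f2. Of all tested genes 2.41% were called in CSex4 and 0.00% in Deltaex4. The authors' deposited tables gave Nr2f2 1.27 ± 2.26 (SE) in CSex4, where 1 library had 16 reads and the other 2, and -1.24 ± 3.72 (SE) in Deltaex4. The ratio of summed reads of CSex4 against WT was 3.97 for Nr2f2 (interval 1.58 to 11.2) and 0.772 for Nr2f1 (0.125 to 3.61). These intervals cover counting error only and leave out the spread between libraries. The difference CSex4 minus Deltaex4, which 0.0502% of genes passed, was 2.50 for Nr2f2 (-6.03 to 11.03), -1.46 for Nr2f1 (-11.67 to 8.75) and -0.02 for Nr2f6 (-1.25 to 1.21). Of the 5 mesoderm and mesenchyme markers 3 were called higher in ESC CSex4 by DESeq2, among them T by 4.71 in the authors' deposited table. Of the 5 ESC markers 2 were called lower there, Esrrb at -1.71 and Nanog at -1.06. No marker of these lists was called in Deltaex4. The part of these markers in the values was not tested.

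After differentiation with retinoic acid all 3 genes were abundant. Nr2f1 had 3018, 7783, 9250 and 7612 reads in the 4 NP WT libraries and 517 and 407 in KO. The KO libraries were the lowest of all NP libraries, at a scaled level of 494 ± 44 (SD, n = 2) against 5998 ± 2324 (SD, n = 4) in WT. WT library a of the first pair, at 2693 scaled reads, lay apart from the other 3 at 6055 to 7649 and still above both KO libraries. The authors' deposited table of KO against the first WT pair gave -3.20 ± 0.40 (SE, adjusted p = 4.75e-14, DESeq2). That of the second WT pair against the same KO libraries gave 3.79 ± 0.28 (SE, adjusted p = 6.14e-40, DESeq2), the same direction, since WT is the numerator there. Thus 1 of 3 family members fell in KO, beside 9.85% of tested genes called lower and 21.4% called in all; against the second WT pair 1 of 3 was called higher in WT, beside 15.6% called higher and 32.9% called in all.

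Nr2f2 and Nr2f6 were not called in either of these tables by DESeq2. Nr2f2 had 3466, 2045, 3468 and 2100 reads in WT and 2835 and 2313 in KO. The authors' deposited tables gave Nr2f2 0.15 ± 0.36 (SE, adjusted p = 0.837, DESeq2) in KO against WT and -0.33 ± 0.27 (SE, adjusted p = 0.375, DESeq2) in WT against KO. Nr2f6 had 2309, 1734, 3728 and 1777 reads in WT and 1620 and 1870 in KO, with 0.00 ± 0.34 (SE) in the authors' deposited table of KO against WT. On the scaled level the KO libraries of Nr2f2 lay within the range of WT, and those of Nr2f6 lay at 1644 and 2125 against 1692 to 2440.

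The same NP comparison moved the neural precursor markers: 6 of 7 were called lower in KO against WT, with a median log2 fold change of -3.32 against -0.01 over all tested genes. Hes5, a Notch target, was at -9.06 and Pax6 at -2.84 in the authors' deposited table, while 2 of 3 endoderm markers were called higher, Foxa2 by 2.21. Of 5 ESC markers, 1 was called, Sox2 at -2.86, which neural precursors also express. Against the second WT pair, 4 of 5 ESC markers were called, of which 3 were higher in KO: in the authors' deposited table WT against KO was -2.55 for Pou5f1, -1.64 for Zfp42 and -1.59 for Esrrb, and 2.82 for Sox2. By the same test, 6 of 7 neural precursor markers were called higher in WT and 2 of 3 endoderm markers lower. Their part in the fall of Nr2f1 was not tested.

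In NP, Nr2f1 was higher in both rescues than in KO, and higher in KO-S than in KO-L. Nr2f1 had 3359 and 3064 reads in KO-S and 1070 and 1279 in KO-L, against 517 and 407 in KO, with no overlap among the 3 groups. The authors' deposited tables gave 2.77 ± 0.19 (SE, adjusted p = 1.26e-47, DESeq2) for KO-S against KO and 1.45 ± 0.26 (SE, adjusted p = 7.05e-07, DESeq2) for KO-L against KO. The difference KO-S minus KO-L was 1.32 ± 0.32 (SE, 95% interval 0.69 to 1.96, adjusted p = 0.00147, Wald test on the deposited DESeq2 values), in a test that 7.03% of genes passed. Both fold changes use the same KO libraries, so this test is approximate too, also for Nr2f2 and Nr2f6 below. On the linked scale KO-S reached 3355 ± 129 (SD, n = 2) and KO-L 1362 ± 329 (SD, n = 2), both under the WT mean of 5998. KO-S lay within the WT range only through WT library a of the first pair, at 2693; the other 3 WT libraries, at 6055 to 7649, were all above KO-S.

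Nr2f2 rose in KO-S as well. It had 4816 and 4345 reads in KO-S, more than in any other NP library, against 2266 and 2814 in KO-L. The authors' deposited tables gave 0.80 ± 0.16 (SE, adjusted p = 7.69e-06, DESeq2) for KO-S against KO and 0.08 ± 0.22 (SE, adjusted p = 0.874, DESeq2) for KO-L against KO. The difference KO-S minus KO-L was 0.72 (0.18 to 1.27, adjusted p = 0.101, Wald test on the deposited DESeq2 values) and did not pass. Nr2f6 had 2224 and 2542 reads in KO-S and 1709 and 1413 in KO-L; the authors' deposited table gave 0.41 ± 0.18 (SE, unadjusted p = 0.0208, adjusted p = 0.0584, DESeq2) for KO-S, and its difference between the rescues was 0.48 (-0.08 to 1.04). In all, 2 of 3 members were called higher in KO-S against KO, beside 16.4% of tested genes called higher and 34.5% called, and 1 of 3 in KO-L against KO, beside 10.9% and 24.7%. The neural precursor markers were called higher in 7 of 7 in KO-S and 5 of 7 in KO-L, with 1 of 7 lower there, Sox1 at -2.18 in the authors' deposited table. In KO-L 4 of 5 ESC markers were also called higher, Nanog by 2.93 in the authors' deposited table. Endoderm markers were called lower in 3 of 3 in KO-S and 2 of 3 in KO-L, Foxa2 at -3.12 in the latter in the authors' deposited table. Of the 5 mesoderm and mesenchyme markers 3 were called higher in KO-L, Col1a1 by 5.25 in the authors' deposited table, and 2 higher and 1 lower in KO-S; the part of these markers in the results was not tested.

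In NP with forced inclusion of exon 4, both Nr2f1 and Nr2f2 were at the low end without a call. Nr2f1 had 2228 and 1867 reads in CSex4 and 6967 and 6745 in Deltaex4, and Nr2f2 had 1333 and 1246 against 1766 and 2056. Both CSex4 libraries lay below all 4 WT libraries for Nr2f1, Nr2f2 and Nr2f6 on the scaled level. The authors' deposited table of CSex4 gave Nr2f1 -1.08 ± 0.38 (SE, unadjusted p = 0.00425, adjusted p = 0.0684, DESeq2) and Nr2f2 -0.87 ± 0.33 (SE, unadjusted p = 0.00777, adjusted p = 0.105, DESeq2). Nr2f6 was at -0.30 ± 0.32 (SE) in the authors' deposited table. None of the 3 was called in CSex4 by DESeq2, with 2 at an unadjusted p under 0.05, beside 5.53% of genes called. None was called in Deltaex4 and none had an unadjusted p under 0.05, beside 0.0809% called; there the authors' deposited table gave Nr2f1 0.61 ± 0.40, Nr2f2 -0.37 ± 0.38 (SE), and 0.23 ± 0.35 (SE) for Nr2f6.

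The difference CSex4 minus Deltaex4 in NP was -1.69 for Nr2f1 (95% interval -2.76 to -0.61, unadjusted p = 0.00214, adjusted p = 0.114, Wald test on the deposited DESeq2 values), in a test that 1.22% of genes passed. For Nr2f2 it was -0.50 (-1.48 to 0.48) and for Nr2f6 -0.54 (-1.47 to 0.40). Both fold changes use the first WT pair, and the SE of the difference leaves out their covariance, so the test is approximate. In NP CSex4 against WT, 4 of 5 ESC markers were called higher, Pou5f1 by 2.50 and Nanog by 2.79, and 3 of 7 neural precursor markers lower in the authors' deposited table; their part in the low values was not tested. From lowest to highest mean, the NP order of Nr2f1 was KO, KO-L, CSex4, KO-S, WT and Deltaex4, and neighbours did not overlap up to KO-S. For Nr2f2 it was CSex4, Deltaex4, WT, KO, KO-L and KO-S, in which CSex4 and Deltaex4, and KO-L and KO-S, did not overlap. For Nr2f6 it was CSex4, KO-L, KO, WT, Deltaex4 and KO-S, with a gap only between CSex4 and KO-L.

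**Figure D3:**
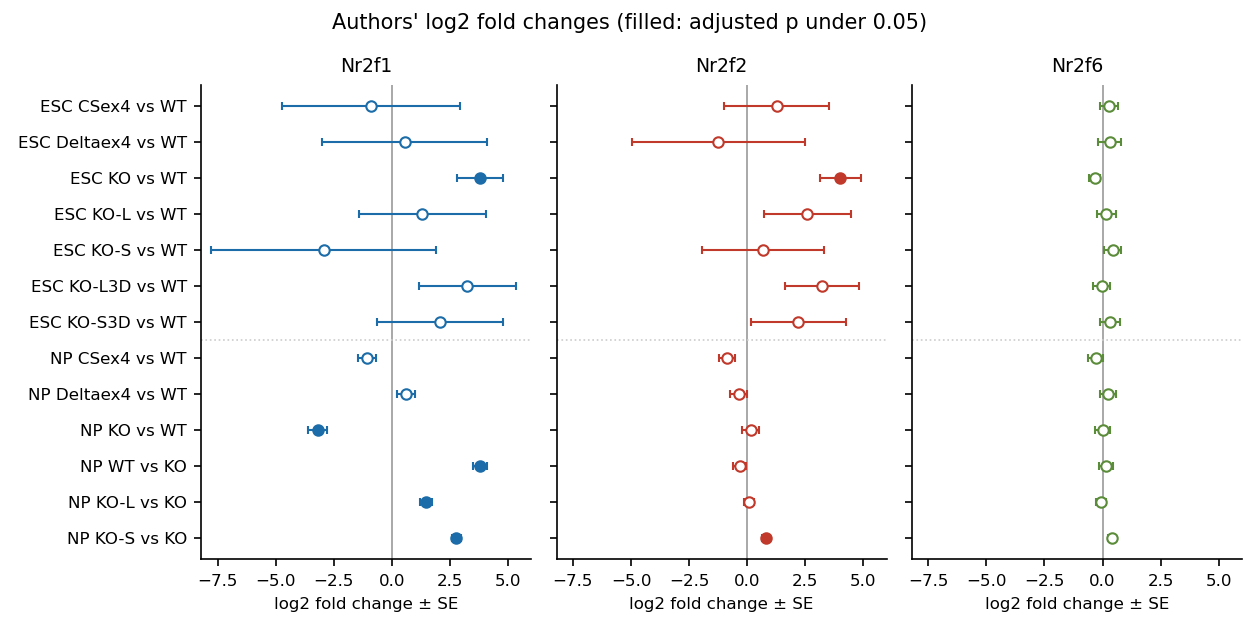
The authors' log2 fold changes (horizontal axis) of each gene in the 13 comparisons (vertical axis), with bars of 1 SE and filled points where the adjusted p was under 0.05. Nr2f1 and Nr2f2 are filled in ESC KO at 3.78 and 4.01, Nr2f1 in 4 NP comparisons and Nr2f2 in KO-S against KO at 0.80, and Nr2f6 has no filled point.

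The loss of Suz12 moved Nr2f1 in opposite directions in the 2 cell states. The difference NP KO against WT minus ESC KO against WT, whose tables share no library, was -6.98 ± 1.07 (SE, 95% interval -9.07 to -4.89, adjusted p = 1.01e-08, Wald test on the deposited DESeq2 values). For Nr2f2 it was -3.86 ± 0.94 (SE, -5.71 to -2.02, adjusted p = 0.00104, same test), from a rise in ESC to 0.15 in NP. For Nr2f6 it was 0.34 ± 0.42 (SE, -0.47 to 1.16, adjusted p = 0.816, same test). Of all genes 9.65% passed this test. The ESC arm of both differences rests on 1 to 3 reads in each WT library.

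The genes around the family members were read for comparison. The non-coding RNA A830082K12Rik lies on the forward strand and overlaps the start of Nr2f1; the labels do not say whether counting used strand, so reads of the overlap cannot be told apart. In NP the authors' deposited tables gave it -1.96 in KO against WT (adjusted p = 0.00938, DESeq2) and 1.91 in KO-S against KO (adjusted p = 9.54e-05, DESeq2), but 0.27 in KO-L against KO (adjusted p = 0.831, DESeq2). In ESC KO it was at 1.19 ± 1.41 (SE, adjusted p = 0.634, DESeq2) in the authors' deposited table. B130024G19Rik overlaps the Nr2f2 start in the same way; it was at a mean of 0 reads in 6 of the 7 ESC tables and at 7.64 to 27 scaled reads in NP, and was called by DESeq2 in no comparison. Fam172a, the nearest protein-coding gene to Nr2f1 at 22.7 kb, was at 0.18 ± 0.20 (SE, adjusted p = 0.611, DESeq2) in ESC KO in the authors' deposited table. Arrdc4, 1602.7 kb from Nr2f2, was at 0.62 ± 0.76 (SE, adjusted p = 0.654, DESeq2). Ocel1 and Ushbp1 flank Nr2f6 at 0.4 and 2.3 kb, and Ushbp1 was called higher in KO-L3D and KO-S3D against WT, by 2.75 and 2.57 in the authors' deposited tables, where Nr2f6 was at -0.04 and 0.31.

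Among the other 45 nuclear receptor genes, none had a higher log2 fold change than Nr2f1 or Nr2f2 in ESC KO against WT, while 31 were above Nr2f6. Of the 36 with an adjusted p there, 8 were called (22.2%, beside 18.3% of all genes), 4 higher and 4 lower, with a median of 0.16 against 0.01 over all tested genes. Among the called rises in the authors' deposited table were those of Vdr, the vitamin D receptor (2.03), and Nr4a2, an orphan receptor of dopamine neurons (1.72). The largest falls there were Nr1d1, the clock repressor REV-ERBα (-1.51), Nr0b1, the pluripotency-linked DAX1 (-1.06), and Rara, a retinoic acid receptor (-0.66). The retinoid X receptor Rxra, a dimer partner of COUP-TFs, was higher by 0.77 (adjusted p = 0.0048, DESeq2) in the authors' deposited table.

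On loss of Suz12 in NP, 7 of the 40 receptors with an adjusted p were called against the first WT pair (17.5%, beside 21.4% of all genes). The rises were led in the authors' deposited table by Pparg, a regulator of fat cell genes (2.73), Nr0b1 (2.23) and Ppara (2.20), and 44 of the 45 were above Nr2f1. Only Rorb, a retinoid-related orphan receptor, was lower, at -4.13. Thra, a thyroid hormone receptor, was the other called fall, at -1.46. Against the second WT pair 17 of 41 receptors were called (41.5%, beside 32.9% of all genes), of which 6 were higher and 11 lower in WT. An H3K27me3 region lay at 23 of the 45 other receptors (51.1%) and a Suz12 region at 16 (35.6%), each of which also had the first kind. Of those 16, 11 had an adjusted p in ESC KO. Among these 11, 3 were called higher and 0 lower, beside 11.0% of all tested genes called higher and 18.3% called. The median log2 fold change of all 16, with or without an adjusted p, was 0.72. Of the 29 without both kinds, 25 had an adjusted p, of which 1 was called higher and 4 lower. The median over all 29 was -0.06. Nr2f1 and Nr2f2 have both kinds of region and Nr2f6 has the first kind only. The family was chosen by its H3K27me3 region at Nr2f2, and the share called was not computed for all genes with both kinds. The part of the regions in these changes was not tested.

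**Figure D4:**
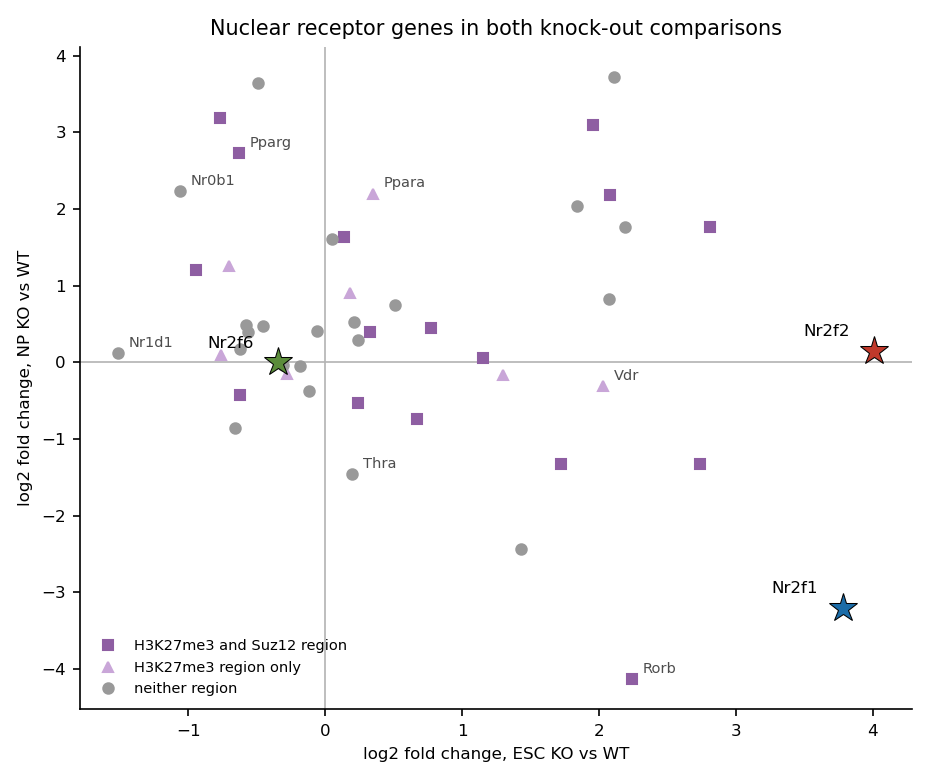
Log2 fold change in ESC KO against WT (horizontal) and NP KO against WT (vertical) for 45 other nuclear receptor genes and the COUP-TF genes (stars), with symbols by the deposited regions at each gene. Nr2f1 and Nr2f2 lie farthest to the right at 3.78 and 4.01, Nr2f1 low at -3.20, and Nr2f6 near the origin.

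Of 9 genes for COUP-TF partners and corepressors (among them Bcl11a, Bcl11b, Zfpm1, Zfpm2, Ncor1, Hdac1, Hdac3 and Rxra), 2 rose in ESC KO and 0 fell, Rxra and the GATA cofactor Zfpm1, the latter by 1.72 in the authors' deposited table. Without Suz12 in NP, 2 fell and 0 rose: Bcl11a, which binds COUP-TFs, with -2.23, and the corepressor Ncor1, with -1.19 in the authors' deposited table. These counts are 22.2% of the list in each comparison, near the 18.3% and 21.4% of all genes called in them. Bcl11a and Ncor1 were called higher in KO-S against KO, by 1.16 and 0.56 in the authors' deposited table.

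Retinoic acid response genes were read because retinoic acid is the agent of the NP protocol. Of 11 (among them Rarb, Cyp26a1, Cyp26b1, Crabp1, Crabp2, Dhrs3, Stra6, Stra8 and Hoxb1), 4 rose and 0 fell in ESC KO (36.4%, beside 18.3% of all genes called), with a median of 1.05 against 0.01 over all tested genes. In NP KO 4 fell and 1 rose (45.5%, beside 21.4%), with a median of -0.67 against -0.01. Crabp1, a retinoic acid-binding protein, changed as Nr2f1 did in direction: 2.21 in ESC KO, -3.42 in NP KO and 4.88 in KO-S against KO in the authors' deposited tables. Crabp2 (-2.55) and Hoxb1 (-2.64) also fell on loss of Suz12 in NP, and Stra6, the vitamin A transporter, was the rise (1.37), by the authors' deposited table. Of the list members named above, Rarb (-0.17), Cyp26a1 (0.47), Cyp26b1 (0.23), Dhrs3 (0.73) and Stra8 (-1.21) were not called there. Against the second WT pair Rarb was called higher in WT, by 0.95, and the others of these were not called. In KO-S against KO 6 were called higher and 4 lower (90.9%, beside 34.5% of all genes), and in KO-L against KO 6 and 3 (81.8%, beside 24.7%). The 4 lower in KO-S were Cyp26a1 (-0.55), Dhrs3 (-0.82), Stra6 (-1.09) and Stra8 (-2.15) in the authors' deposited table.

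The genes whose log2 fold changes over the 13 comparisons were closest to a member's were found among 13423 genes with a mean of at least 50 scaled reads over the 13 tables. The comparisons share libraries, so the 13 values are not independent and no p is given. The 3 genes closest to Nr2f1 passed that minimum through NP: in the 7 ESC tables their means were 0.748 to 15.4 scaled reads and the SEs of their log2 fold changes 1.04 to 4.93, so 7 of the 13 values behind their likeness are folds between very low counts. For Nr2f1 they were Hoxb2, Hoxb3 and the non-coding RNA Haglr of a Hox cluster, with root mean square differences of 0.84, 0.90 and 1.01 log2 units and Pearson r of 0.93, 0.92 and 0.91; the median over all genes was 2.49. For Nr2f2 they were Tmem132c, the homeobox gene Msx2 and the glycosyltransferase gene Gcnt4, at 0.62, 0.81 and 0.84 (r of 0.92, 0.88 and 0.85) against a median of 1.94. For Nr2f6 they were Fam53a, Mark4 and Git1, at 0.16, 0.17 and 0.18 against 0.58. Nr2f1 and Nr2f2 differed from each other by 2.11 (r of 0.44), and from Nr2f6 by 2.43 and 1.83. The likeness of Nr2f2 also rests on low counts in ESC. There the means of Nr2f2 itself were 1.79 to 20.4 scaled reads, with SEs of 0.87 to 3.72. Those of Tmem132c were 12.2 to 90.6, of Msx2 27.4 to 203 and of Gcnt4 17.2 to 122.

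These genes were chosen for following the members, so their calls add nothing to the likeness and are given as values. Hoxb2, which patterns the hindbrain, was at 3.97 in ESC KO (adjusted p = 0.0113, DESeq2), -1.93 in NP KO and 1.86 in KO-S against KO in the authors' deposited tables. Hoxb3 was at 3.38, -2.89 and 2.50 there. In KO-L against KO, where Nr2f1 was called, Haglr was at 0.03 (adjusted p = 0.985, DESeq2) in the authors' deposited table, and in NP CSex4, where Nr2f1 was not, Hoxb2 was called at -1.23 (adjusted p = 0.0434, DESeq2). Those of Nr2f2 were called in ESC KO too, Tmem132c at 3.72, Msx2 at 2.38 and Gcnt4 at 3.31 in the authors' deposited table, and in NP KO none of the 3 was called by DESeq2, nor had an unadjusted p under 0.05 (-0.59, 0.31 and -0.64). Against the same KO libraries the second WT pair gave Gcnt4 1.49 (adjusted p = 3.27e-04, DESeq2) in the authors' deposited table, higher in WT, and called neither Tmem132c (-0.10) nor Msx2 (0.13). In NP KO-L against KO, where Nr2f2 was at 0.08, all 3 were called: Tmem132c at 0.85, Msx2 at -0.99 and Gcnt4 at -1.25. In KO-S against KO, where Nr2f2 was called at 0.80, Gcnt4 was called at 1.23, and Tmem132c (0.56) and Msx2 (-0.36) were not. In ESC KO-L3D all 3 were called and Nr2f2 was not.

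**Figure D5:**
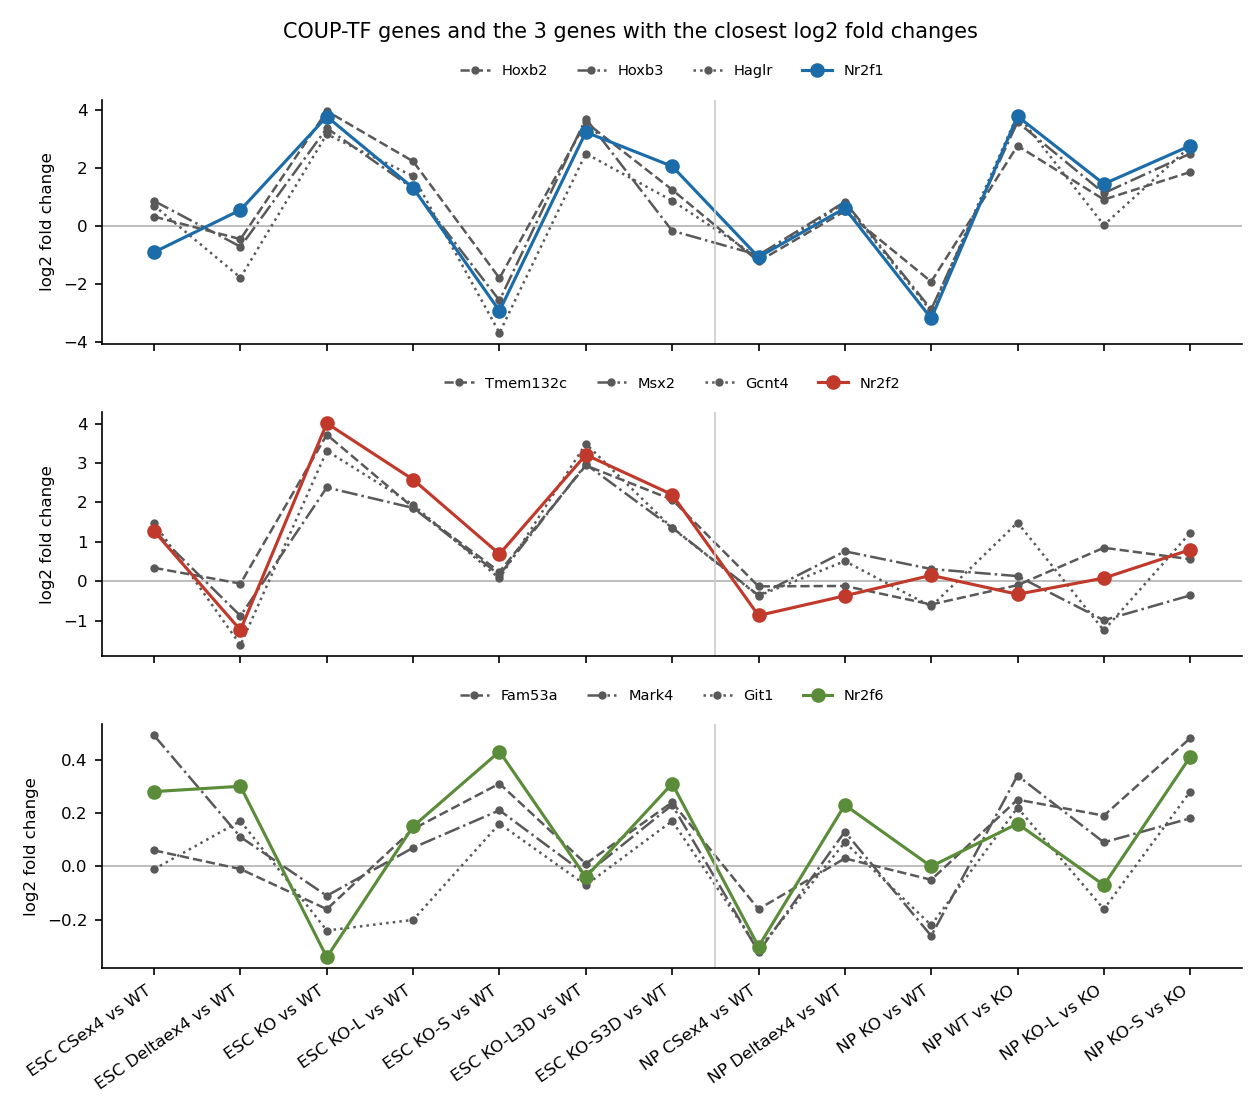
Log2 fold changes (vertical axis, own scale per panel) of each COUP-TF gene (coloured) and its 3 closest genes (grey) in the 13 comparisons (horizontal axis). Nr2f1 follows Hoxb2 and Hoxb3 through the rise in ESC KO and the fall in NP KO; Nr2f2 and its closest genes are high in ESC KO and KO-L3D and lie between -0.64 and 0.31 in NP KO; Nr2f6 stays between -0.34 and 0.43.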

How the data were processed

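RNA-seq was compared in 13 deposited tables and ChIP-seq in 2 deposited region lists. Per the file headers, the authors' tables give for each gene symbol a mean signal over libraries (read counts divided by size factors), a log2 fold change with its SE, a test statistic (score) and a p-value with an adjusted p-value. The submitters' processing notes name TopHat, Bowtie, DESeq2, DiffBind, mm10 and dm3, without a role or version. The region lists hold 1 score per region, deposited under a header that names DiffBind and a false discovery rate of 5%; whether that score is a p-value is not given in the sources used here. The tables were used as deposited, with a call at an adjusted p under 0.05, and no gene was refitted. The members and gene lists were chosen with earlier results of these data known.

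Differences between 2 tables were tested with a two-sided Wald test (SE from both tables, Benjamini-Hochberg over all genes; tested on simulated data) with Python 3.11.15 and SciPy 1.17.1. Whole reads per library were recovered from the 15-digit means, whose steps give each library's size factor. Reads were sought within a fold range of the group mean, and 1 solution fitted all tables for each member. The 60 genes tried for linking tables in each cell state gave 18 ESC and 14 NP libraries, as many as labelled, and a library's group followed from the tables that hold it. Gene positions and promoters come from RefSeq (GRCm38.p6) and regions within 2500 bp were counted. Alternatives were a stricter adjusted p, a minimum fold or mean, the adjustment over other gene sets, the other WT pair, a covariance between tables, and other region distances and values.

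Named genes were the members, Suz12, overlapping and neighbouring genes, the 3 largest called rises and falls among nuclear receptors in each KO comparison, list members, and the 3 genes closest to each member. A few genes that this rule or the lists include are counted but not reported here by name.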

Additional observations from a re-analysis of the deposited data

Results flagged for a closer look

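For 3 results the effect of a contrast differed between groups by the Wald test of the difference. The log2 fold change of Nr2f1 on loss of Suz12 differed between NP and ESC by -6.98 (adjusted p = 1.01e-08, over DESeq2 values), a fall in 2 of 2 NP libraries and a rise in 3 of 3 ESC libraries. That of Nr2f2 differed by -3.86 (adjusted p = 0.00104, over DESeq2 values), from a rise in 3 of 3 ESC libraries to no call in NP. The log2 fold change of Nr2f1 against KO in NP was higher by 1.32 in KO-S than in KO-L (adjusted p = 0.00147, over DESeq2 values), with both KO-S libraries above both KO-L libraries. No NP WT library lay far enough from the other 3 to pass Dixon's limit of 0.829, the largest ratio of gap to range being 0.749, for Nr2f2. With 4 libraries this limit is hard to pass, so staying under it does not show that no library stands apart. For Nr2f1 the ratio was 0.678, with WT library a of the first pair at 2693 scaled reads and the others at 6055 to 7649.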

How the results depend on the processing

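Of 46 fold changes and differences recomputed under other settings, 43 kept their direction and their side of the threshold. Of 103 recomputed counts, 92 stayed within 1.5 times the count reported, 6 of them at another value. With the other pair of WT libraries Nr2f6 in NP KO moved from 0.00 to -0.16, without a call either way. With a log2 fold change of at least 1 required, 1 member was called in KO-S against KO in NP, Nr2f1. With a covariance of 0.5 times the product of the SEs, CSex4 minus Deltaex4 for Nr2f1 in NP (-1.69) and KO-S minus KO-L for Nr2f2 in NP (0.72) passed, at adjusted p = 8.01e-04 and 0.00349 (Wald test on the deposited DESeq2 values). Within 10000 bp there were 2 H3K27me3 and 3 Suz12 regions at Nr2f1, and within 100000 bp 4 and 4 there and 2 and 5 at Nr2f2. At a region value under 1e-10, 1 H3K27me3 region was left at Nr2f6. At an adjusted p under 0.01 the other nuclear receptors called numbered 0 in ESC KO-S3D, 4 in NP KO and 7 in KO-S against KO. No paired analysis was possible because the tables hold statistics of comparisons, whose fits the labels already call paired, and the replicate numbers of the recovered libraries are not known; for the same reason no library was left out. Depth limits Nr2f1 and Nr2f2 in ESC, where WT held 1 to 3 reads per library.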
